A study of Mus musculus with 12 samples.

Results

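The effect of deleting Ahnak was measured in white adipose tissue as the difference between knockout (KO) and wild-type (WT) mice averaged over 2 diets, with diet kept as a factor. All 12 arrays of the series entered, 6 KO and 6 WT, in 4 groups of 3 arrays: WT on regular chow, KO on regular chow, WT on a high fat diet (HFD) and KO on HFD. The animals were male and 18 weeks old, and the HFD, with 60% of fat, was given for 12 weeks to groups matched by weight. The labels name no fat depot, strain background or kind of Ahnak allele, so which part of the gene was removed, and in which cells, is not known here. Samples are numbered but not tied to separate animals, so a p-value here speaks only of the spread among 3 numbered samples, part of which may be technical. Of 34760 rows of log2 values, 21640 carried 1 gene symbol, and 19937 genes, each read by its row with the highest mean, were tested. A gene was called at a Benjamini-Hochberg adjusted p under 0.05 in limma. A called gene was counted as similar on both diets where the smaller of its 2 differences was at least 0.5 of the larger, to the same side, and the KO arrays did not overlap the WT arrays on either diet.

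AHNAK is a giant scaffold protein that binds S100A10 and annexin A2 beneath the plasma membrane and takes part in membrane repair and in calcium channel and kinase signalling. Fat tissue stores triglyceride in adipocytes, and its gene expression reports on fat synthesis, mitochondrial oxidation and the immune cells that gather in the tissue when fat intake is high. Averaging over diets asks which genes depend on genotype in lean and in fat-fed tissue alike, and setting the 2 differences side by side shows which averages come from a single diet.

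Adipocyte markers were high on every array. Over the 16 measured genes of adipocyte identity, the mean log2 value was 12.27 to 12.42 on the 6 chow arrays and 11.66 to 12.47 on the 6 HFD arrays. The lists of skeletal muscle, T cell and NK cell, epididymis, and mammary and salivary epithelium averaged 4.04 to 5.77 on every array. Other lists were higher: mesothelial genes averaged 7.82 to 9.18, nerve and Schwann cell genes 6.60 to 6.94, and the 3 measured red blood cell genes 5.99 to 7.01. The deposited values hold no detection call, so no level could be set against background. Within a group the arrays correlated across genes at r = 0.985 to 0.996. The median gene had an SD of 0.10 to 0.11 in each of the 4 groups. These are bulk samples, so fewer cells of a type and less RNA per cell cannot be told apart.

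Ahnak itself was lower in KO on both diets by similar amounts. On chow the log2 values were 9.94, 10.06 and 10.08 in WT and 9.31, 9.27 and 9.42 in KO. On HFD they were 10.27, 9.68 and 10.04 in WT and 9.58, 9.40 and 9.45 in KO. The KO arrays lay below the WT arrays on each diet. The KO values, 9.27 to 9.58, were above the array medians of 5.78 to 5.92, and whether this row reads the deleted part of the gene is not known here. The averaged difference was -0.61 ± 0.09 (SE, n = 6 against 6; limma adjusted p = 0.0147). An exact two-sided permutation test of genotype within diets gave p = 0.005, the smallest its 400 arrangements allow. The fall was smaller on HFD, with -0.52 against -0.69 on chow. The HFD value minus the chow value was 0.17 (95% interval -0.22 to 0.56). Without WT chow replicate 1 the averaged difference was -0.63 with an adjusted p of 0.0507.

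Averaged over both diets, 892 of 19937 genes (4.47%) were called, 352 higher in KO (1.77%) and 540 lower (2.71%). Few were large: 5 rose and 70 fell by more than 2-fold. Most of these averages came from the fat-fed animals. The difference was larger on HFD than on chow in 856 of the 892 genes, and 846 were also called for the difference on HFD, where 2691 genes (13.5%) passed in the fit to all 12 arrays. With only the 6 HFD arrays in the fit 4 genes passed, and with array weights 7648. On chow alone 0 genes (0%) passed in limma (lowest adjusted p = 0.225), with 1116 genes at an unadjusted p under 0.05. The median called gene had a smaller difference that was 0.243 of its larger one. The difference had the same sign on both diets in 842 called genes and opposite signs in 50. The choice of genes by their average favours equal signs, so this split is a description.

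**Figure D1:**
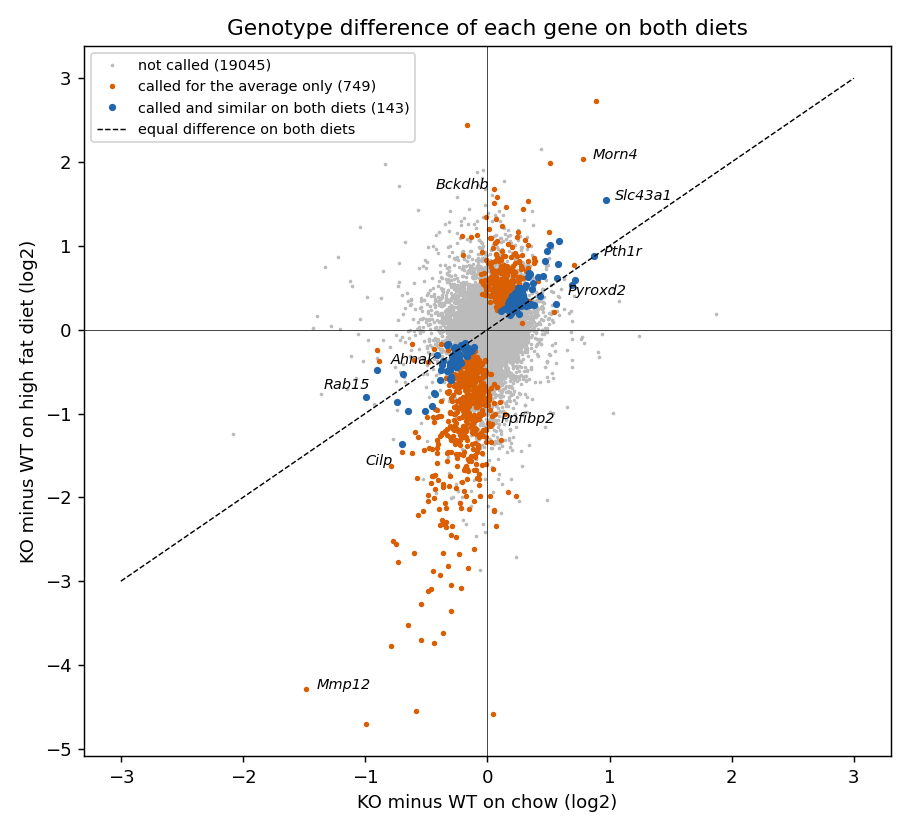
Genotype difference (KO minus WT, log2, 3 arrays a group) of each of 19937 genes on chow (horizontal axis) and on HFD (vertical axis). Grey points were not called for the average, orange points were called (749), and blue points were called and similar on both diets (143); most orange points lie near the vertical axis, with differences on HFD and little on chow, and the dashed line marks equal differences.

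A similar difference on both diets was found in 143 genes (0.717% of all genes and 16.0% of those called), 80 higher in KO (0.401%) and 63 lower (0.316%). Their averaged differences were modest: the 80 higher genes had a median of 0.30 (range 0.17 to 1.26) and the 63 lower genes a median of -0.32 (range -1.03 to -0.16). The difference was larger on HFD in 120 of them and on chow in 23, and 28 were not called for the difference on HFD. The rule itself keeps the difference between diets small, and its 95% interval held 0 for 138 of the 143. At the edge of the rule, the kinase and phosphatase gene Pfkfb4 was just inside, with -0.45 on chow and -0.91 on HFD, and Dnajc4 just outside, with 0.14 and 0.27. At the edge of the threshold, Gusb had an averaged difference of -0.65 ± 0.16 (SE, limma adjusted p = 0.0499) and Aldh4a1 of 0.27 ± 0.07 (0.0501). KO and WT arrays were separate to the same side on both diets in 612 genes (3.07%), 341 of them called. Asking for evidence on each diet separately, by the larger of the 2 p-values, left no gene after adjustment (lowest adjusted p = 0.225), and 251 genes (1.26%) had an unadjusted p under 0.05 to the same side on both.

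These counts depended on single arrays. Without WT chow replicate 1, 2 or 3 the called genes numbered 15, 274 and 241, and the similar genes 5, 80 and 58. Without KO chow replicate 1, 2 or 3 they numbered 274, 121 and 229, and 87, 28 and 76. Without WT HFD replicate 1, 2 or 3 they numbered 2621, 490 and 91, and 206, 111 and 26. Without KO HFD replicate 1, 2 or 3 they numbered 105, 385 and 125, and 29, 61 and 26. Of the 143 similar genes, 28 were called in at least 9 of the 12 fits that each left out 1 array. In all 12 fits, 8 were called: Arhgdib, C8g, Mdn1, Pfkfb4, Pilra, Pyroxd2, Slc43a1 and Uvrag. These fits asked for the averaged call alone, and similarity was not asked again. For Mdn1, Pfkfb4, Pilra and Uvrag the 95% interval of the difference between diets lay below 0, with the larger fall on HFD. None of the similar genes passed for interaction in limma (lowest adjusted p = 0.223).

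**Figure D2:**
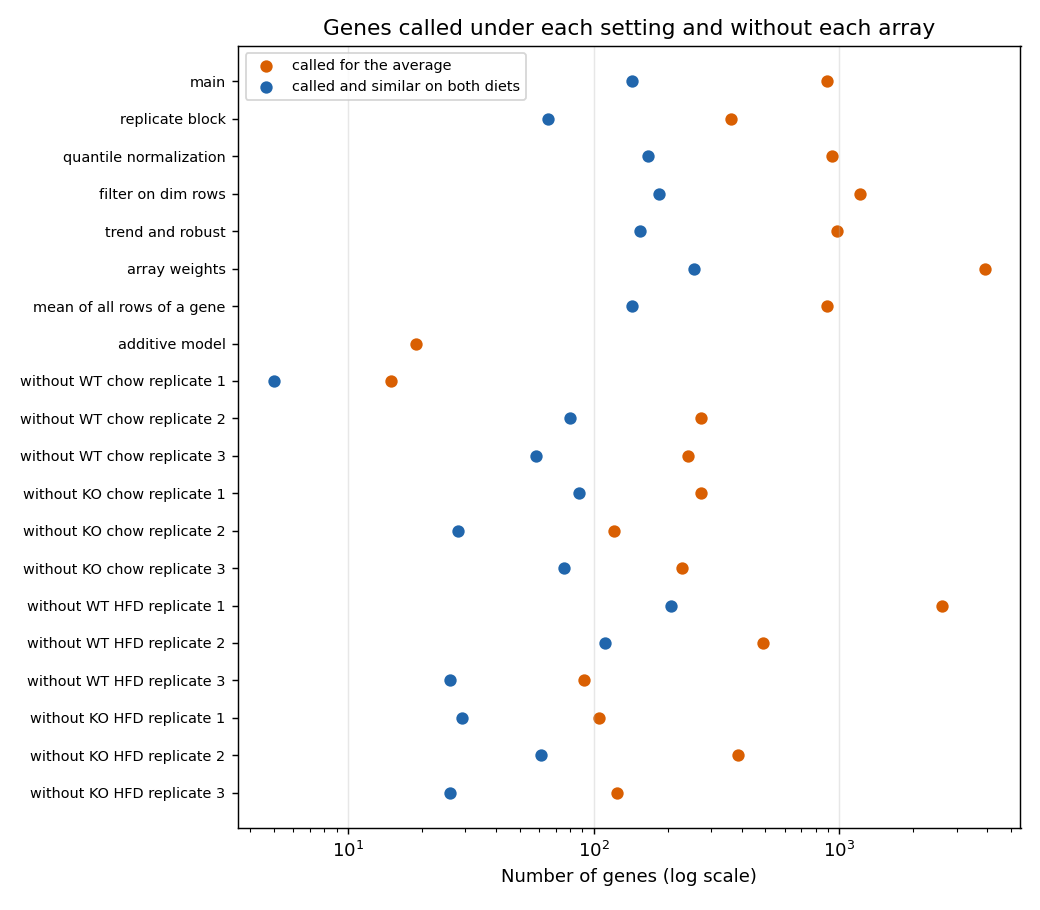
Number of genes called for the averaged difference (orange) and called and similar on both diets (blue) on a log axis, for the values as reported (892 and 143), for 7 alternative settings and without each of the 12 arrays. The counts range from 15 and 5 without WT chow replicate 1 to 2621 and 206 without WT HFD replicate 1 among the omissions; the model without an interaction term has no similar count.

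The promoters of 4 genes that carry this pattern are shown. Slc43a1 had the largest similar rise and Pyroxd2 the smallest p among the similar genes. Ahnak is the deleted gene, and Lep encodes the hormone leptin. Each sequence is the 250 bases before the RefSeq start of the gene, read 5′ to 3′ on the gene's strand. Capitals mark the letters searched on both strands. These were CACGTG, the E box, and TTGCGCAA, a palindrome bound by C/EBP factors. The GC box was read as GGGCGG. The last motifs were the CCAAT box and the letters of a TATA box, searched as TATAA.
Slc43a1 (GRCm38.p6, chr2:84840073-84840322, plus strand): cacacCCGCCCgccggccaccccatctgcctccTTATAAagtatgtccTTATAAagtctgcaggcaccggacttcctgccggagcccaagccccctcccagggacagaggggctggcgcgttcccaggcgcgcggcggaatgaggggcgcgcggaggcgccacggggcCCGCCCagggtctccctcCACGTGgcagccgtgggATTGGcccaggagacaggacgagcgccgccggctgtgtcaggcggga
Pyroxd2 (GRCm38.p6, chr19:42752776-42753025, minus strand): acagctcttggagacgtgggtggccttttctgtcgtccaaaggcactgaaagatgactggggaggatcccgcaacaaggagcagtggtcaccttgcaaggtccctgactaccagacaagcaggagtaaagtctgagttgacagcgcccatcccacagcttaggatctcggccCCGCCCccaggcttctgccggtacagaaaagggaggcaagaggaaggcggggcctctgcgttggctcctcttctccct
Ahnak (GRCm38.p6, chr19:8989034-8989283, plus strand): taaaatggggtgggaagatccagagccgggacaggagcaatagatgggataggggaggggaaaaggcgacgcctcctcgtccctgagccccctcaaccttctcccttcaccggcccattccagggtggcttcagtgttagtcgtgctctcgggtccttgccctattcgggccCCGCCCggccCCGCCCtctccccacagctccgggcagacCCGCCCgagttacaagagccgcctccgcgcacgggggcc
Lep (GRCm38.p6, chr6:29059971-29060220, plus strand): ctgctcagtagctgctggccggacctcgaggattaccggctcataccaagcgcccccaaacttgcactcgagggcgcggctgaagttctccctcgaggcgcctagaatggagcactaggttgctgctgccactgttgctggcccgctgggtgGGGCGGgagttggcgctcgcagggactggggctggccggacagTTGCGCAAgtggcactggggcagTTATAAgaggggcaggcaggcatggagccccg
Slc43a1 holds 1 E box, 2 GC boxes and 1 CCAAT match. It also holds 4 TATAA matches at 2 sites, since TTATAA reads as TATAA on either strand, so the motif overlaps its own reverse complement there. Lep holds 1 C/EBP palindrome, 1 GC box and 1 TTATAA site, Ahnak holds 3 GC boxes, and Pyroxd2 holds 1. A match describes the letters only.

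Among the 15 genes named for a similar rise, transporters and receptors of the cell surface had the largest averaged differences. Slc43a1 encodes a carrier of leucine and other large neutral amino acids. Its log2 values on chow were 8.91, 8.52 and 8.81 in WT and 9.32, 9.82 and 9.99 in KO. On HFD they were 8.56, 7.56 and 7.84 in WT and 9.71, 9.52 and 9.37 in KO. Every KO array was above every WT array of either diet, and the averaged difference was 1.26 ± 0.17 (SE, n = 6 against 6; limma adjusted p = 0.0144). Pth1r, the receptor of parathyroid hormone and its related peptide, read 7.84, 7.73 and 7.93 in WT and 8.38, 9.21 and 8.53 in KO on chow. On HFD it read 7.08, 7.03 and 7.02 in WT and 8.12, 7.80 and 7.85 in KO. Its level was lower on HFD in both genotypes, and the groups did not overlap on either diet, as the rule requires. The differences were 0.87 on chow and 0.88 on HFD (average 0.87 ± 0.12, adjusted p = 0.0147), with an interval of -0.54 to 0.55 for the difference between diets. Hcar1 encodes the lactate receptor, which restrains lipolysis in adipocytes. It read 9.33 to 9.95 in WT and 10.20 to 10.33 in KO on chow, and 8.78 to 9.51 in WT and 10.10 to 10.63 in KO on HFD (average 0.82 ± 0.15, adjusted p = 0.0224). Slc5a6, the carrier of biotin, pantothenate and lipoate, differed by 0.51 on chow and 1.01 on HFD (average 0.76 ± 0.12, adjusted p = 0.0155).

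Enzymes of lipid, sugar and nucleotide metabolism followed. Acaca encodes acetyl-CoA carboxylase 1, the biotin enzyme that makes malonyl-CoA for fatty acid synthesis. It read 11.91 to 12.15 in WT and 12.29 to 12.72 in KO on chow, and 10.11 to 11.15 in WT and 11.33 to 11.77 in KO on HFD. The gap between the HFD groups was narrow, 11.15 against 11.33, and the average was 0.71 ± 0.16 (limma adjusted p = 0.0369). Ptges, the inducible prostaglandin E synthase, read 9.40, 9.40 and 9.30 in WT and 9.91, 10.07 and 9.85 in KO on chow. The HFD arrays read 9.0, 8.28 and 8.56 in WT and 9.38, 9.43 and 9.39 in KO. The KO arrays on HFD thus sat at the WT level on chow, and the average was 0.68 ± 0.10 (adjusted p = 0.0147). Gpd2, the mitochondrial glycerol-3-phosphate dehydrogenase, had an average of 0.65 ± 0.13 (adjusted p = 0.0261), with 0.48 on chow and 0.83 on HFD. Nmrk1, the nicotinamide riboside kinase of NAD synthesis, differed by 0.45 on chow and 0.65 on HFD. Ide, the protease that degrades insulin, read 9.83 to 9.93 in WT and 10.33 to 10.95 in KO on chow, and 9.87 to 9.98 and 10.31 to 10.60 on HFD. Its WT level was alike on both diets, and the average was 0.61 ± 0.10 (adjusted p = 0.0148). Pyroxd2, a predicted oxidoreductase of mitochondria, had the smallest adjusted p among the 15 genes named for a similar rise. It read 6.81, 6.83 and 6.68 in WT and 7.42, 7.24 and 7.37 in KO on chow. Under HFD the values were 6.78, 6.59 and 6.64 in WT and 7.32, 7.24 and 7.30 in KO. All 6 KO arrays lay above all 6 WT arrays, with differences of 0.57 and 0.61 and an average of 0.59 ± 0.05 (adjusted p = 0.00262).

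The other leading genes of this direction were smaller or dimmer. Plekhg6 differed by 0.72 on chow and 0.59 on HFD, and Gfod2 by 0.42 and 0.63. Hemk1, a methyltransferase acting on mitochondrial release factors, differed by 0.34 and 0.68. Cdkn1c, the imprinted cell cycle inhibitor p57, read 8.87 to 9.07 in WT and 9.13 to 9.44 in KO on chow, and 8.26 to 8.53 and 8.87 to 9.36 on HFD. The gap on chow was small, and the average was 0.51 ± 0.09 (limma adjusted p = 0.0224). Pard6g, a cell polarity protein, differed by 0.33 and 0.63. C8g, encoding the gamma chain of complement component 8 and singled out after its values were seen, differed by 0.43 on chow and 0.40 on HFD (average 0.41 ± 0.05, adjusted p = 0.0132). Of the 15 genes named for a similar rise, Slc43a1 and Pyroxd2 were called without any 1 array. Pth1r, Ptges, Ide and Hemk1 lost the call only without WT chow replicate 1 (adjusted p = 0.0507 for each), and Slc5a6 also without WT HFD replicate 3. Hcar1, Nmrk1 and Cdkn1c lost it in 5 of the 12 fits. Plekhg6, Gpd2, Gfod2 and Pard6g lost it in 9, and Acaca in 10, with adjusted p-values up to 0.0911. No sign could change in these fits, since the rule took only genes whose KO and WT arrays did not overlap.

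**Figure D3:**
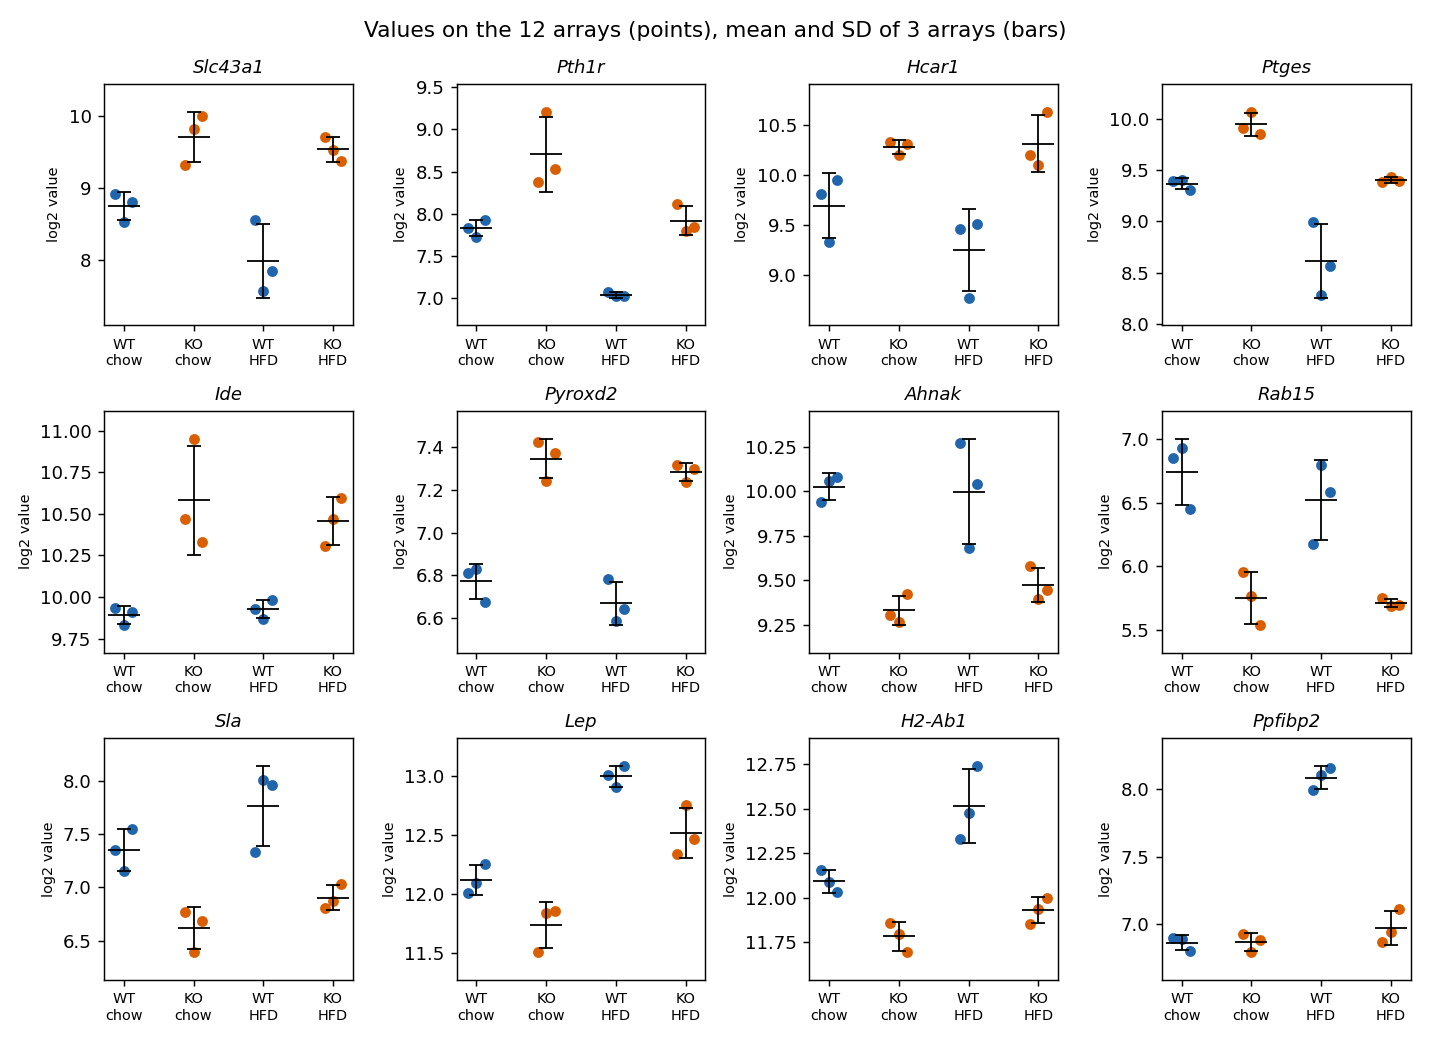
Log2 value on each of the 12 arrays (points; blue WT, orange KO) with the mean and SD of the 3 arrays of each group (bars), for 11 genes with a similar difference on both diets and for Ppfibp2. In Pyroxd2 the KO arrays lie at 7.24 to 7.42 and the WT arrays at 6.59 to 6.83 whatever the diet; in Ppfibp2 only the WT arrays on HFD, at 7.99 to 8.16, stand apart. Vertical scales differ between genes and do not start at 0.

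Among the genes lower in KO on both diets, several are expressed mainly in leukocytes. Ccr2, the chemokine receptor of inflammatory monocytes, read 9.30, 8.91 and 8.76 in WT and 8.58, 8.22 and 8.22 in KO on chow. In the HFD groups it read 9.91, 9.34 and 10.21 in WT and 8.68, 8.83 and 9.03 in KO. The groups were separate on each diet, as the rule requires, and the average was -0.81 ± 0.15 (limma adjusted p = 0.0224). Sla, an adaptor that dampens antigen receptor signalling, read 7.16 to 7.55 in WT and 6.39 to 6.77 in KO on chow, and 7.33 to 8.01 and 6.81 to 7.03 on HFD (average -0.80 ± 0.12, adjusted p = 0.0147). Pilra, an inhibitory receptor of myeloid cells, read 6.38 to 6.68 in WT and 6.0 to 6.26 in KO on chow, and 7.52 to 7.65 and 6.70 to 6.98 on HFD (average -0.60 ± 0.07, adjusted p = 0.0132). Arhgdib, expressed mainly in blood cells, differed by -0.43 on chow and -0.75 on HFD (average -0.59 ± 0.09, adjusted p = 0.0147). H2-Ab1 and H2-Eb1, chains of the MHC class II molecules that present antigen, differed by -0.31 and -0.30 on chow and by -0.58 and -0.56 on HFD. Samhd1, the phosphohydrolase of deoxynucleotides, differed by -0.30 and -0.56.

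The macrophage markers, which include Ccr2, moved to the same side as these genes. The mean log2 value over the 24 macrophage genes was 9.12 to 9.45 in WT and 8.85 to 9.13 in KO on chow, so the groups met. On HFD it was 10.10 to 10.99 in WT and 9.21 to 9.33 in KO. The B cell list, 15 genes, averaged 5.96 to 6.16 in WT and 5.71 to 5.84 in KO on chow, and 6.02 to 6.17 and 5.75 to 5.85 on HFD, separate on both diets. The T cell and NK cell list averaged 5.26 to 5.63 in WT and 5.23 to 5.32 in KO on chow, and 5.24 to 5.40 and 5.14 to 5.51 on HFD, overlapping on both. The part of these cell types in the lower values of the leukocyte genes was not tested.

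The remaining genes of this direction have other roles. Cilp, a cartilage matrix protein that is also made by fibroblasts, read 8.38 to 8.79 in WT and 7.41 to 8.14 in KO on chow, and 8.85 to 9.16 and 7.33 to 7.91 on HFD. It had the largest similar fall, with an average of -1.03 ± 0.14 (limma adjusted p = 0.0147), and a larger difference on HFD by -0.67 (95% interval -1.28 to -0.05, interaction adjusted p = 0.255). Rab15, a small GTPase of endosomal recycling, read 6.85, 6.93 and 6.45 in WT and 5.95, 5.76 and 5.54 in KO on chow. On HFD it read 6.18, 6.80 and 6.58 in WT and 5.75, 5.69 and 5.70 in KO. The average was -0.90 ± 0.12 (adjusted p = 0.0132), and the difference was the larger on chow, -0.99 against -0.81. Lep, encoding leptin, the hormone by which adipocytes report fat stores, read 12.01, 12.09 and 12.25 in WT and 11.51, 11.84 and 11.85 in KO on chow. The HFD arrays read 13.00, 12.90 and 13.08 in WT and 12.34, 12.75 and 12.46 in KO. Leptin was thus higher on HFD in both genotypes and lower in KO on both diets, by -0.38 and -0.48 (average -0.43 ± 0.09, adjusted p = 0.0307). Pfkfb4, which sets the glycolytic activator fructose 2,6-bisphosphate, had an average of -0.68 ± 0.09 (adjusted p = 0.0135). Nfil3, a repressor of the circadian clock, differed by -0.37 and -0.42 (average -0.40 ± 0.07, adjusted p = 0.0181).

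Olfml3, a secreted glycoprotein of the matrix, differed by -0.51 on chow and -0.97 on HFD, and S1pr3, a receptor of sphingosine 1-phosphate, by -0.39 and -0.60. Mdn1, the giant ATPase that remodels large ribosomal subunits during assembly, read 6.36 to 6.55 in WT and 6.07 to 6.28 in KO on chow, and 6.86 to 7.0 and 6.22 to 6.35 on HFD (average -0.45 ± 0.06, limma adjusted p = 0.0132). Among the 15 genes named for a similar fall, Pfkfb4, Pilra, Arhgdib and Mdn1 were called without any 1 array. Cilp, Rab15, Sla, H2-Ab1 and H2-Eb1 lost the call only without WT chow replicate 1 (adjusted p = 0.0507, and 0.0531 for H2-Ab1). Nfil3 lost it in 2 of the 12 fits, without WT chow replicate 1 or WT HFD replicate 3, and Ccr2 and Olfml3 in 5. Lep and Samhd1 lost it in 9 and S1pr3 in 10, with adjusted p-values up to 0.104. The sign could not change in these fits, since the rule took only genes whose KO and WT arrays did not overlap.

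Subunits of the mitochondrial respiratory chain had like median differences on both diets. The group was picked by gene symbol after its values were seen. Of 82 measured subunits, 15 were called higher (18.3%, against 1.77% of all genes) and 0 lower. Of the 82, 8 were called higher and similar on both diets, where 0.401% of all genes were. They were Atp5j2, Cox4i1, Cyc1, Ndufa5, Ndufb11, Ndufb9, Sdhb and Uqcrh. The median difference over the 82 was 0.17 on chow and 0.20 on HFD. It was above 0 for 81 on chow and 71 on HFD, where 53.6% and 54.3% of all genes were above 0. Ndufa5, of complex I, read 8.61, 8.81 and 8.67 in WT and 9.0, 9.11 and 8.90 in KO on chow. Under HFD the values were 8.36, 8.12 and 8.26 in WT and 8.67, 8.83 and 8.75 in KO (average 0.41 ± 0.06, limma adjusted p = 0.0147). Its groups were separate on both diets, as the rule for similar genes requires. Uqcrh, of complex III, differed by 0.32 on chow and 0.29 on HFD, and Atp5j2, of the ATP synthase, by 0.23 and 0.24. Quantile normalization gave medians of 0.17 and 0.21. Without any 1 array the median stayed between 0.12 and 0.21 on chow and between 0.15 and 0.25 on HFD, while each of the 12 omissions moved the count of calls by more than 1.5 times, to between 0 (without WT chow replicate 1) and 40 (without WT HFD replicate 1).

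Proteins of the mitochondrial ribosome, which translates part of the respiratory chain, showed smaller differences of the same kind. Of 77 measured, 6 were called higher (7.79%, against 1.77% of all genes) and 0 lower. Mrpl2, Mrpl38, Mrps30 and Mrps5 were similar on both diets. The median was 0.12 on chow and 0.10 on HFD, above 0 in 74 and 64 genes. Of the 10 measured genes of MHC class II antigen presentation, 5 were called lower (50%, against 2.71% of all genes). They were H2-Ab1, H2-Eb1, H2-Aa, H2-DMa and Cd74. Medians over the 10 were -0.18 on chow and -0.55 on HFD. Both families were also picked after their values were seen. Without 1 array, the ribosomal proteins had 0 calls (WT chow replicate 1 or WT HFD replicate 3) to 17 (WT HFD replicate 1), and stayed within 1.5 times only without KO chow replicate 1, WT HFD replicate 2 or KO HFD replicate 2. The class II genes had 0 calls (WT chow replicate 1) to 6 (WT HFD replicate 1 or 2), and stayed within 1.5 times only without WT chow replicate 3, KO chow replicate 1, WT HFD replicate 1 or 2, or KO HFD replicate 2. Adipocyte markers averaged 12.32 to 12.40 in WT and 12.27 to 12.42 in KO on chow, which overlapped, and 11.66 to 12.29 and 12.42 to 12.47 on HFD, which did not. The part of adipocyte content in the mitochondrial genes was not tested.

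**Figure D4:**
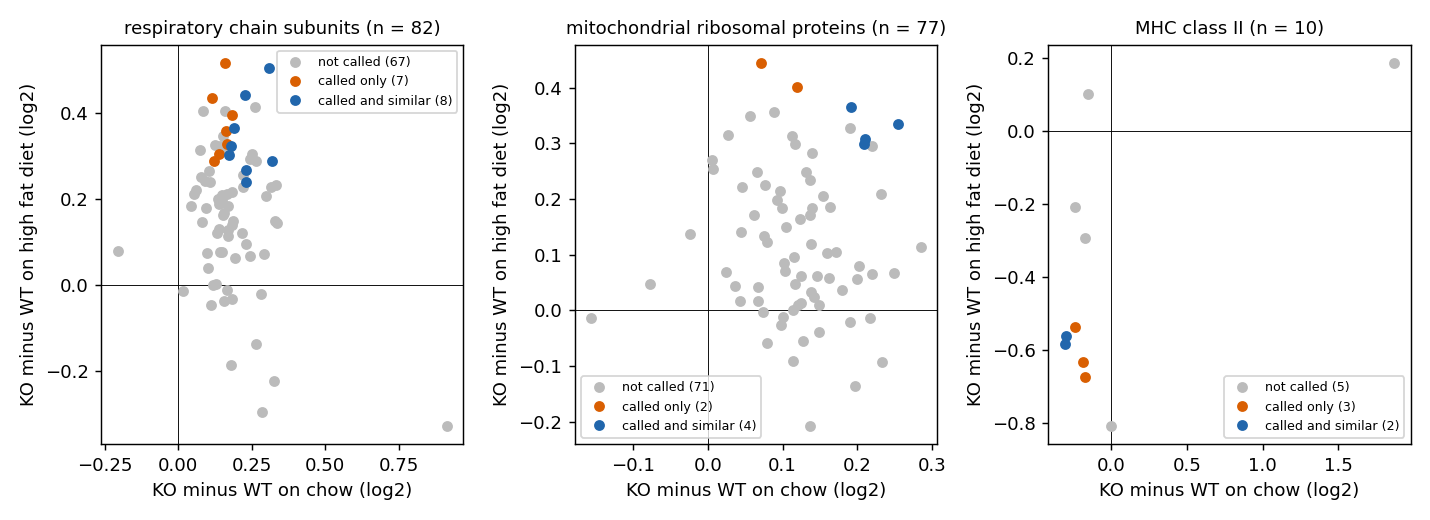
Genotype difference (KO minus WT, log2, 3 arrays a group) on chow (horizontal axis) and HFD (vertical axis) for 82 respiratory chain subunits, 77 mitochondrial ribosomal proteins and 10 MHC class II genes, 1 point per gene. Grey genes were not called for the average, orange genes were called, and blue genes were called and similar on both diets; of the respiratory subunits, 81 lie right of 0 and 71 above 0. Scales differ between panels.

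Metabolic pathways beyond the respiratory chain were read with 22 pathway lists. In an additive model, which has no interaction term and called 19 genes in all, every pathway and cell marker list had 0 calls except that of AHNAK partners, where Ahnak was called. In the tricarboxylic acid (TCA) cycle and pyruvate oxidation, 5 of 19 genes were called higher, where 1.77% of all genes were, and 0 lower. The 2 subunits of pyruvate dehydrogenase E1 were similar on both diets. Pdhb read 11.19 to 11.41 in WT and 11.51 to 11.79 in KO on chow, and 10.67 to 11.05 and 11.27 to 11.32 on HFD (average 0.35 ± 0.08, limma adjusted p = 0.0361). Pdha1 differed by 0.27 on chow and 0.39 on HFD, Sdhb, of complex II, by 0.17 and 0.30, and Suclg2 by 0.10 and 0.70. The list had medians of 0.10 on chow and 0.27 on HFD. Its count moved by more than 1.5 times without each of the 12 arrays in turn, to 0 without any 1 of 9 of them, to 1 without WT HFD replicate 2 or KO HFD replicate 2, and to 13 without WT HFD replicate 1.

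In fatty acid synthesis and the pentose phosphate pathway, 5 of 21 genes were called higher, where 1.77% of all genes were, and 0 lower. These were Tkt, Mlxipl, Acaca, Srebf1 and Acacb. Tkt, which encodes transketolase and moves carbon units between pentose and hexose phosphates, was the gene here with the larger difference on chow. It read 11.88, 11.92 and 11.85 in WT and 12.50, 12.57 and 12.27 in KO on chow, and 11.16, 11.06 and 11.15 in WT and 11.27, 11.48 and 11.53 in KO on HFD. The differences were 0.56 and 0.31 (average 0.43 ± 0.06, limma adjusted p = 0.0147). Mlxipl, the carbohydrate response factor, and Srebf1, the sterol response factor, differed by 0.14 and 0.17 on chow and by 0.77 and 0.70 on HFD. The list had the higher median on chow, 0.23 against 0.05 on HFD. Leaving out 1 array gave 0 (WT chow replicate 1) to 6 (WT HFD replicate 1) higher calls, and all omissions but those of WT HFD replicates 1 and 2 moved the count by more than 1.5 times.

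Breakdown of branched chain amino acids differed mainly on HFD. Of 19 genes, 3 were called higher, where 1.77% of all genes were: Bckdhb, Bckdha and Bckdk. The first 2 are subunits of the branched chain ketoacid dehydrogenase and the last is its kinase. Bckdhb read 9.67 to 9.85 in WT and 9.69 to 10.03 in KO on chow, which overlapped, and 8.96 to 9.55 and 10.54 to 11.02 on HFD, with differences of 0.08 and 1.58. The list had medians of 0.06 on chow and 0.60 on HFD. Its count ran from 0 without WT chow replicate 1 to 17 without WT HFD replicate 1, and only the omissions of WT HFD replicate 2 and KO HFD replicate 2 left it within 1.5 times. In insulin signalling 1 of 18 genes was called higher, where 1.77% of all genes were, and 0 lower. This was Irs1, the insulin receptor substrate, with 0.34 on chow and 0.82 on HFD. In triglyceride synthesis and droplet genes, 1 of 18 was called higher and 0 lower. That gene, Pck1, which makes glycerol backbone precursors, differed by 0.06 and 1.68. Fatty acid oxidation had 1 higher and 1 lower call in 18 genes, and cholesterol synthesis 1 and 1 in 17. The thermogenic list had 0 higher and 1 lower in 15, where 2.71% of all genes were called lower. Without WT chow replicate 1 all of these lists had 0 calls. Of 16 adipocyte identity genes, Cebpa, an adipogenic transcription factor, was called higher with 0.10 and 0.69, Adipor2, an adiponectin receptor, was called higher with 0.19 and 0.46, and Lep was called lower. The higher adipocyte genes were thus 2 of 16, where 1.77% of all genes were called higher. Each of the 12 omissions moved this count by more than 1.5 times, to 9 without WT HFD replicate 1 and to 0 or 1 otherwise. The Irs1 call was lost without WT chow replicate 1, and the Pck1 list kept a call only without WT HFD replicate 1.

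The macrophage, cytokine, cell cycle and matrix lists had calls only in the lower direction, with medians further below 0 on HFD than on chow. Of 24 macrophage genes, 13 were called lower, where 2.71% of all genes were, and 0 higher, with medians of -0.23 on chow and -0.98 on HFD; only Ccr2 among them was similar on both diets. Mmp12, the macrophage elastase, read 8.63, 7.17 and 8.03 in WT and 7.12, 6.28 and 6.0 in KO on chow. In the HFD groups it read 11.33, 13.00 and 12.47 in WT and 7.57, 7.91 and 8.46 in KO. The groups were separate on both diets, but narrowly on chow, with 7.17 in WT against 7.12 in KO. The differences were -1.48 and -4.28 (average -2.88 ± 0.33, limma adjusted p = 0.0103). Itgax, the integrin CD11c, differed by -0.55 and -3.70. Without 1 array the macrophage count was 1 (WT chow replicate 1) to 17 (WT HFD replicate 1), and it stayed within 1.5 times only without KO chow replicate 1 or WT HFD replicate 1 or 2.

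Of 22 cytokine and chemokine genes, 6 were called lower, where 2.71% of all genes were. Among them were Ccl8 (-0.79 on chow, -1.62 on HFD) and Saa3 (-0.60 and -2.66). Omitting WT chow replicate 1 left 0 of these calls and omitting WT HFD replicate 1 gave 11; each of the other omissions left 4 or 6. Of 21 cell cycle genes, 10 were called lower, against 2.71% of all genes, with medians of -0.04 on chow and -1.13 on HFD. Kif11, a mitotic kinesin, differed by -0.04 on chow and -1.62 on HFD. Of 23 extracellular matrix genes, 6 were called lower, against 2.71% of all genes. They were led by Col6a3, a collagen VI chain, with 0.03 on chow and -1.34 on HFD. No gene of the cell cycle or matrix lists was similar on both diets. Without 1 array the cell cycle count was 0 (without WT chow replicate 1, any KO chow replicate, WT HFD replicate 3, or KO HFD replicate 1 or 3) to 20 (without WT HFD replicate 1), and it stayed within 1.5 times only without WT HFD replicate 2. The matrix count was 0 (without WT chow replicate 1) to 8 (without WT HFD replicate 1), and it stayed within 1.5 times only without the latter. In the B cell list 3 of 15 genes were called lower, against 2.71% of all genes. One of them, Cd79b, of the B cell receptor, was similar on both diets. It read 6.35 to 6.54 in WT and 6.08 to 6.17 in KO on chow, and 6.31 to 6.56 and 5.84 to 6.14 on HFD. The B cell count was 0 without WT chow replicate 1, KO chow replicate 2, WT HFD replicate 3, or KO HFD replicate 1 or 3. It was 1 without WT chow replicate 2 or 3 or KO chow replicate 1 or 3.

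**Figure D5:**
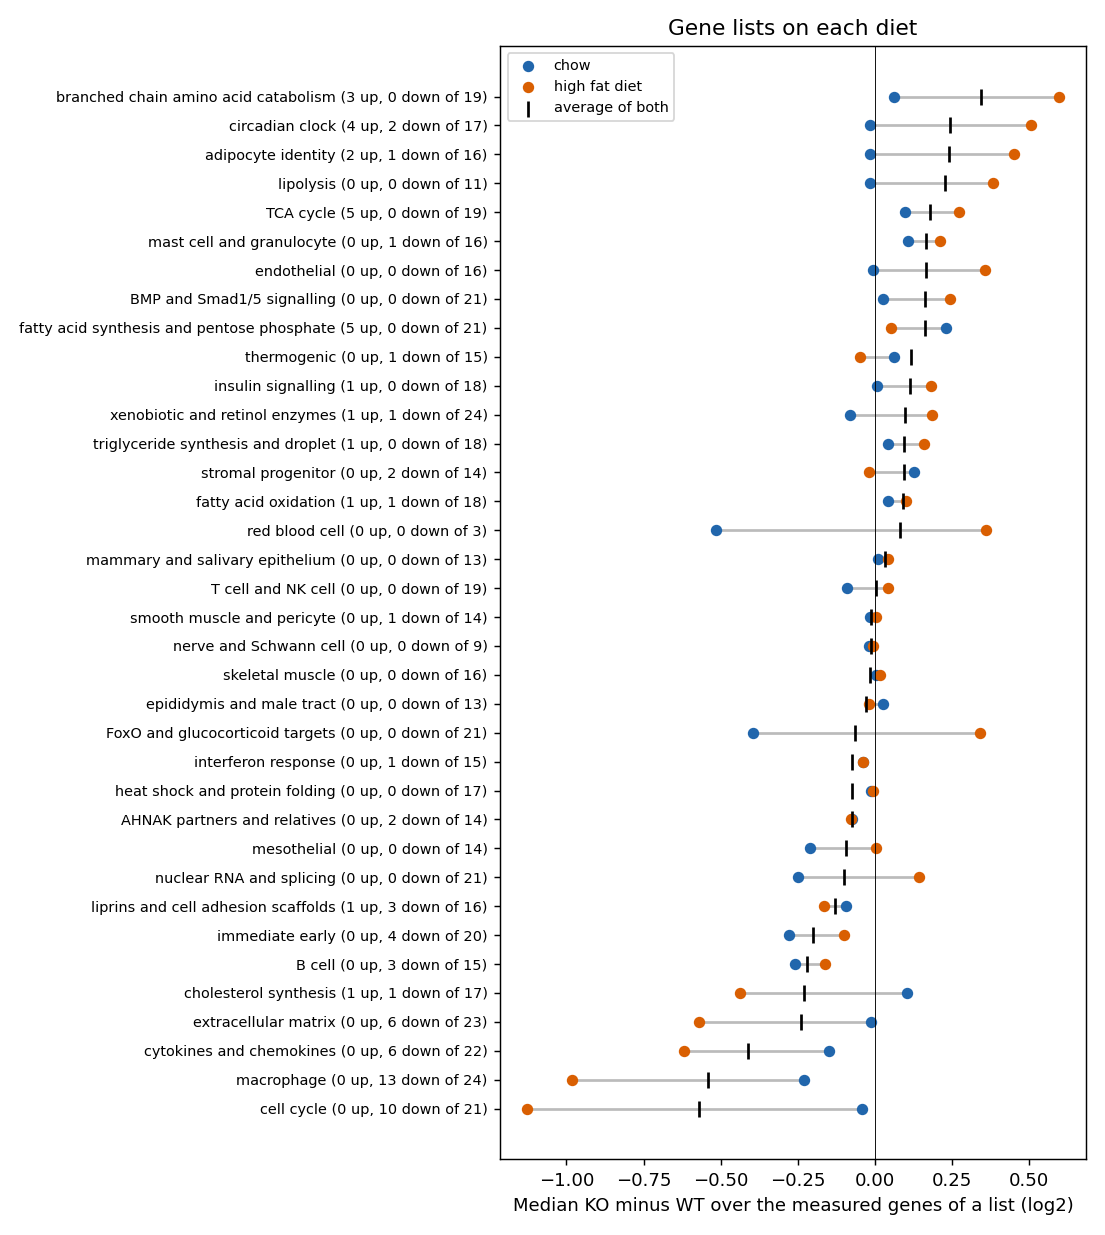
Median genotype difference (KO minus WT, log2) over the measured genes of each of 36 gene lists on chow (blue), on HFD (orange) and of each gene's average over both diets (black mark, the median of those averages), sorted by the latter, with the number of genes called higher and lower for the average. The cell cycle and macrophage lists have the lowest medians on HFD (-1.13 and -0.98) against -0.04 and -0.23 on chow, and the FoxO and nuclear RNA lists are among those with medians of opposite sign on the 2 diets.

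The circadian clock list had calls in both directions. Of 17 genes, 4 were called higher and 2 lower, where 1.77% and 2.71% of all genes were. Dbp, a clock output factor, read 9.99, 10.10 and 9.92 in WT and 10.39, 10.54 and 10.09 in KO on chow, with 10.10 in WT against 10.09 in KO at the point where the groups met. On HFD it read 8.69, 8.52 and 8.71 in WT and 9.66, 9.67 and 9.60 in KO, with no overlap (average 0.67 ± 0.08, limma adjusted p = 0.0103). Tef, its relative, differed by -0.05 on chow and 0.93 on HFD, and Nr1d2, a nuclear receptor of the clock, by 0.20 and 0.56. Nfil3, which opposes Dbp and Tef at shared sites, was the only clock gene with similar differences. The labels give no hour of collection. The higher count fell to 1 and the lower to 0 without WT chow replicate 1 or WT HFD replicate 3. They were 2 and 1 without KO chow replicate 2 or KO HFD replicate 1 or 3, and without WT HFD replicate 1 the higher count was 6.

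Of 20 immediate early genes, which respond within minutes to stimulation, 4 were called lower, where 2.71% of all genes were, and 0 higher. Fosl2 was similar on both diets, at -0.27 and -0.25. Fos differed by -0.70 on chow, where KO replicate 3, at 7.33, lay within the WT range of 7.19 to 7.60, and by -1.46 on HFD. Atf3 differed by -0.16 on chow and -2.84 on HFD, and Myc by -0.60 and -0.36. The immediate early count was 5 without WT HFD replicate 1 and 0 or 1 without any other array. The list of AHNAK partners and relatives, 14 genes, had 2 called lower, where 2.71% of all genes were. They were the deleted gene Ahnak itself and Myof, a membrane repair protein of the ferlin family, which differed by -0.23 on chow and -1.37 on HFD. Omitting 1 array gave 0 of these calls (WT chow replicate 1) to 3 (WT HFD replicate 1); 9 of the 12 omissions moved the count by more than 1.5 times, and those of WT chow replicate 3 and WT HFD replicates 1 and 2 did not.

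In other lists the average hid differences of opposite sign. Of 21 FoxO and glucocorticoid targets, 0 were called for the average in limma and 8 had an unadjusted p under 0.05. Over all genes, 4118 of 19937 had such an unadjusted p for the average. Without WT HFD replicate 1, 2 of the FoxO and glucocorticoid targets were called higher and 2 lower. The difference was below 0 on chow in 18 and above 0 on HFD in 18, with medians of -0.39 and 0.34. Arrdc3, an arrestin family gene, differed by -1.22 on chow and 0.86 on HFD (interaction adjusted p = 0.0552). Of 21 nuclear RNA and splicing genes, 0 were called for the average, 1 had an unadjusted p under 0.05, 21 were below 0 on chow and 17 above 0 on HFD. Malat1, an abundant nuclear RNA, read 11.58, 11.50 and 11.98 in WT and 11.18, 11.03 and 10.97 in KO on chow. The HFD arrays read 11.52, 11.43 and 11.41 in WT and 11.66, 11.77 and 11.85 in KO, so the order of the groups turned around. Opposite signs occurred in 15 of 21 FoxO genes, 17 of 21 nuclear RNA genes and 45.2% of all genes. In each list 15 genes had an unadjusted interaction p under 0.05, against 17.5% of all genes, and none passed after adjustment. In limma, 0 genes were called for the average in 11 other lists. Their counts at an unadjusted p under 0.05 stand against 4118 of all 19937 genes. There were 7 of 21 BMP and Smad1/5 signalling genes, 6 of 11 lipolysis genes, 2 of 9 nerve and Schwann cell genes, and 1 each of the T cell and NK cell, endothelial, skeletal muscle, mammary and salivary epithelium, and heat shock and protein folding lists. There were 0 of the mesothelial, epididymis and red blood cell lists. Without WT HFD replicate 1, 4 lipolysis genes and 1 BMP gene were called higher, and 1 gene each of the heat shock, skeletal muscle, and nerve and Schwann cell lists was called lower. Without WT HFD replicate 2, 1 gene each of the T cell and NK cell list and the mammary and salivary list was called lower.

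Other genes were called for the average with a difference mostly on 1 diet. The test of the difference between diets called 1 gene of 19937 (0.00502%), Ppfibp2, a liprin of cell adhesion and cytoskeleton, and it called 0 genes without WT chow replicate 1 or 3, KO chow replicate 1, or WT HFD replicate 2 or 3. Its difference was 0.01 on chow and -1.11 on HFD (average -0.55 ± 0.06, limma adjusted p = 0.00529). Among genes called higher, those with the largest interaction statistics were Sox7, Bckdhb, Gstt2, Zbtb5 and Tef, each with an interaction adjusted p of 0.0552. Sox7, an endothelial transcription factor, read 8.24 to 8.40 in WT and 8.11 to 8.33 in KO on chow, and 7.04 to 7.62 and 8.40 to 8.60 on HFD. Gstt2, a glutathione transferase, differed by 0.03 and 1.10, and Zbtb5, a zinc finger repressor, by -0.03 and 0.58. Of the 892 called genes, 611 had an unadjusted interaction p under 0.05, against 17.5% of all genes. Of the 143 similar genes 5 did, a count that the rule for similar genes itself keeps low. Sox7 lost its call for the average in 7 of the 12 fits without 1 array, Tef in 5 and Zbtb5 in 4, all 3 of them without WT chow replicate 1 among others. Bckdhb and Gstt2 lost it only without WT chow replicate 1, and Ppfibp2 in none of these fits.

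Morn4, a gene of the MORN repeat family singled out after its values were seen, had the smallest adjusted p named here. It read 7.41, 7.48 and 7.22 in WT and 8.22, 8.12 and 8.12 in KO on chow. Under HFD the values were 6.57, 5.80 and 5.96 in WT and 8.22, 8.11 and 8.11 in KO. The KO values were nearly equal on both diets and the WT values lay lower on HFD than on chow. The differences were 0.78 and 2.04 (average 1.41 ± 0.11, limma adjusted p = 0.00131), outside the rule for similar genes.

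The place of the called genes on the chromosomes was examined after the values had been seen. Chromosome 19, which carries Ahnak, had 46 of 675 genes called (6.81%) and 9 similar on both diets (1.33%), including Ahnak, Ide, Pyroxd2 and Nmrk1. The next highest shares were 6.55% called on chromosome 15 and 1.27% similar on chromosome 18. Over all genes 4.47% were called and 0.717% were similar. Among the 10 nearest measured genes on each side of Ahnak in the RefSeq order, 1 was called, where 4.47% of all genes were. It was Incenp, a mitotic gene, with -0.16 on chow and -1.12 on HFD. Morn4, Pyroxd2 and Ide were the 314th, 325th and 258th measured gene from Ahnak.

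Over all genes the differences on chow and on HFD, which share no arrays, correlated weakly across genes (r = 0.207, Spearman's rank correlation = 0.145, n = 19937); genes are not independent replicates. Of the genes called on HFD, 66.2% had the same sign on chow, against 54.8% of all genes. The 1325 genes called higher on HFD (6.65%) had a median of 0.45 there and 0.03 on chow. The 1366 called lower (6.85%) had -0.67 and -0.07. On chow, 5.28% of the HFD calls had an unadjusted p under 0.05 to the same side, against 3.29% of all genes. The median difference of all genes was 0.01 for the average, 0.01 on chow and 0.02 on HFD.

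Promoter letters of the similar genes were counted against all 32851 RefSeq promoter windows of 250 bases. Of the 143 genes, 63 of the 80 higher genes matched with 80 windows and 50 of the 63 lower genes with 65 windows. The GC box GGGCGG occurred in 50% of the windows of higher genes, 63.1% of those of lower genes and 32.7% of all windows. CACGTG occurred in 8.75%, 7.69% and 6.02%, CCAAT in 37.5%, 26.2% and 33.8%, and TATAA in 11.2%, 23.1% and 22.8%. TTGCGCAA occurred in 0%, 3.08% and 0.164%, which is 2 windows of the lower genes, 1 of them that of Lep printed above. Windows of 1 gene overlap, and all windows include genes that the tissue does not express, so these shares are a description.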

How the data were processed

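Total RNA was labelled with the array maker's whole transcript procedure and read on 12 one-colour Affymetrix arrays, per the labels' protocols. The authors deposited 1 table of log2 values. Only affy is named in the submitters' processing notes, and no source used here gives the background correction or normalization. Array medians lay between 5.78 and 5.92, and no detection calls or builds are given. Rows were named through the platform annotation; 21553 matched RefSeq GRCm38.p6 by Entrez identifier, and for 954 genes with several rows the row with the highest mean was used. No low filter was applied.

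A mean for each of 4 groups was fitted in limma 3.58.1 (R 4.3.3), with 8 residual degrees of freedom, two-sided tests and Benjamini-Hochberg adjustment over 19937 genes. Differences are KO minus WT on the log2 scale ± SE; the number of arrays limits their precision. Named were Ahnak, the 15 largest similar rises and falls, up to 5 unequal genes a direction, and up to 4 called members of each of 36 gene lists; predicted genes, olfactory receptors and small RNAs were passed over. The members and lists were chosen with earlier results of these data known. The fit was checked on simulated data. Alternatives covered normalization, dim rows, the variance model, array weights, the row per gene, a replicate block, an additive model, the rule for similar genes, and each array left out.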

Additional observations from a re-analysis of the deposited data

Results flagged for a closer look

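Ppfibp2 differed between the diets in its response to genotype. Its log2 values were 6.90, 6.89 and 6.80 in WT and 6.93, 6.80 and 6.88 in KO on chow, and 7.99, 8.11 and 8.16 in WT and 6.87, 6.94 and 7.12 in KO on HFD. The difference on HFD minus that on chow was -1.12 (95% interval -1.37 to -0.87; limma interaction adjusted p = 0.014), so the average over diets describes neither diet. The interaction call was lost, with 0 genes called, without WT chow replicate 1 or 3, KO chow replicate 1, or WT HFD replicate 2 or 3, and with replicate number as a block.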

How the results depend on the processing

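The count of genes called for the average (892) was 361 with replicate number as a block, 19 in an additive model without interaction, 3909 with array weights, and 15 to 2621 with 1 array left out. The count of similar genes (143) was 65 with the replicate block, 257 with array weights, 65 with a smaller difference of at least 0.67 of the larger, 5 to 206 with 1 array left out, and 0 by the larger p of the 2 diets, an alternative added after seeing the data. On chow the count of 0 was 0 to 1 with 1 array left out. On HFD the count of 2691 was 7648 with array weights, 4 when the compared arrays were fitted alone, and 904 to 3930 with 1 array left out. The single interaction call became 0 with the replicate block, 75 without dim rows, 2819 with array weights, and 0 to 2060 with 1 array left out. Ahnak ranged from -0.69 to -0.54 with 1 array left out. The causes were not tested, save that the additive model by its construction puts unequal effects into the residual spread; 18 of its 19 calls were similar genes and the other was Morn4. The array weights, 0.376 to 20.0, came from a fit that stopped before convergence and rest on WT HFD replicate 3. Replicate numbers did not pair the samples: deviations of same-numbered arrays correlated at -0.41 to 0.38, above 0.1 in 4 of 18 pairs, and 2 of 12 arrays correlated best with their own number. With the replicate block the macrophage calls were 7 of 24 genes, cell cycle 6 of 21, matrix 2 of 23, and TCA cycle and immediate early 0. Quantile normalization, a dim filter, a trended robust variance and the mean of all rows gave 935, 1214, 976 and 890 averaged calls. Of 684 alternative values of the 36 named genes other than Ahnak, 527 kept the call, 157 lost it and 0 changed sign. The losses were 130 with 1 array left out, 24 in the additive model and 3 with the block. With 1 array left out the sign of the similar genes could not change, since their KO and WT arrays did not overlap. Without detection calls, signal over background could not be judged for dim genes.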
